A study of Mus musculus with 36 samples.

Results

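The 42 genes described here drive or mark the cell division cycle and DNA replication, and their RNA was followed in 3 liver cell types of mice that had lost their Kupffer cells, which are resident liver macrophages. They were taken as a list of named genes, chosen with earlier results of these data known. All 42 were found by symbol among the 24421 gene symbols of each count file. Bulk RNA sequencing covered 36 libraries, with 4 libraries in each of 9 groups. Hepatic stellate cells (HSCs, the vitamin A-storing cells beside the sinusoids), liver sinusoidal endothelial cells (LSECs, which line these capillaries) and hepatocytes (the parenchymal cells) were each sampled at 12 h and at 36 h after an injection of DT (diphtheria toxin) that depletes Kupffer cells, and from WT mice given PBS. All mice were of the C57BL/6 strain. The labels name neither the allele that makes Kupffer cells sensitive to the toxin nor the age of the mice, and they describe no group that received toxin and kept its Kupffer cells, so the toxin itself and the loss of the macrophages cannot be told apart. They also do not say that the libraries of a group came from separate animals, so the p-values measure only the spread between these libraries.

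A cell that divides first passes through G1, where D-type cyclins with the kinase CDK4 release E2F transcription factors from the retinoblastoma protein, and E2F then switches on the genes for S phase. Origins of replication are licensed by loading of the MCM helicase, which CDC45 and the GINS complex activate, while PCNA clamps the polymerases to DNA and ribonucleotide reductase and thymidylate synthase supply nucleotides. The cyclin B and CDK1 kinase, Polo and Aurora kinases, the spindle checkpoint and the anaphase-promoting complex then carry the cell through mitosis, and their genes peak later in the cycle than those for licensing. In the adult liver most cells of these types are out of cycle, and hepatocytes re-enter it after loss of liver mass.

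Library totals ran from 25404719 to 31734631 counts. Levels are given as CPM, the counts of a gene over the total of its library at a fixed scale, with totals scaled by the trimmed mean of M values (TMM) within each cell type. Each gene was tested by quasi-likelihood in edgeR, the p-values were adjusted by Benjamini-Hochberg over all genes tested, and a gene is called where its adjusted p is under 0.05. Identity markers matched the labels by level. All 10 stellate, all 10 endothelial and all 10 hepatocyte markers had counts in their own cell type, but also in both HSCs and LSECs. The summed level of a cell type's own markers was 61609 to 84337 CPM in WT HSC libraries, 29819.6 to 33263 CPM in WT LSEC libraries and 56282 to 77704 CPM in WT hepatocyte libraries. In WT libraries of the other cell types, stellate markers summed to at most 331 CPM, endothelial markers to at most 153 CPM and hepatocyte markers to at most 401 CPM. In LSECs at 36 h, replicate 4 was the highest of the 4 libraries for 34 of the 42 genes. Fold changes of the 42 genes in LSECs at 36 h are therefore given with and without this library. In LSECs WT replicate 1 was the lowest of its group for 36 of the 42 genes and WT replicate 2 the highest for 33. Ranks of this kind, at 36 h and in WT, were not counted over all genes, so whether they are particular to the list was not tested.

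The start of each gene was searched for words of cell cycle promoters, since the genes for licensing and the genes for mitosis are known to carry different words. RefSeq windows of build GRCm38.p6, from 250 bases before to 50 after the start, were found for 33 of the 42 genes (35 windows). Those of Mcm4, Gins2, Ccnd1, Ccnd2, Ccne2, Ccna2, Foxm1, Aurkb and Tpx2 are not shown. Words of 3 kinds were searched on both strands: the E2F words TTTGGCGC, TTTCGCGC, TTTCCCGC and TTTGCCGC, the cell cycle homology region (CHR) word TTTGAA, and CCAAT, the word read by the NF-Y factor. The 6 windows below are examples from the list. Of these genes, only Cdk4 and Cenpa were called between groups of the same cell type in the main fits. Capitals mark these words on either strand, running on where 2 matches overlap. Mcm5 (chr8:75109259-75109558, plus strand) and Mcm6 (chr1:128359656-128359955, minus strand) encode helicase subunits, and Cdk1 (chr10:69352863-69353162, minus strand) the mitotic kinase. Cdc20 (chr4:118437294-118437593, minus strand) encodes the activator of the anaphase-promoting complex, Cenpa (chr5:30666636-30666935, plus strand) the histone variant of centromeres and Cdk4 (chr10:127063285-127063584, plus strand) the G1 kinase.
Mcm5: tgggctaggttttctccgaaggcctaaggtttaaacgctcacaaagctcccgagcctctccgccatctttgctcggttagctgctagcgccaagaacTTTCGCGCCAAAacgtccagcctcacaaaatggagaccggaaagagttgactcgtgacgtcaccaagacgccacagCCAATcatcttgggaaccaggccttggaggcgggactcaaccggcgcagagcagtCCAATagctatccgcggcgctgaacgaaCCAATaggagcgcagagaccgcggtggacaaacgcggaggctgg
Mcm6: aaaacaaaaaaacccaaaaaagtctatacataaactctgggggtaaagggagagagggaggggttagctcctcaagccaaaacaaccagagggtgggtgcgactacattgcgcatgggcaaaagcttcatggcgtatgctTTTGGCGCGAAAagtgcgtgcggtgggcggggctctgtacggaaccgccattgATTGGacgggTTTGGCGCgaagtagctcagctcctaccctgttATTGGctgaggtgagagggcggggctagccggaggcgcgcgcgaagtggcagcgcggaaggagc
Cdk1: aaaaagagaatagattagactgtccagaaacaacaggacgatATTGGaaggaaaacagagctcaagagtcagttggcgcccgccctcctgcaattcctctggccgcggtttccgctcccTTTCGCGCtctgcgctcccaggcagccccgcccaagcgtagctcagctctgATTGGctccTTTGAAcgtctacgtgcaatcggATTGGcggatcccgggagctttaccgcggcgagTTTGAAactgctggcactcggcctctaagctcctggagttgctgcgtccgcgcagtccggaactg
Cdc20: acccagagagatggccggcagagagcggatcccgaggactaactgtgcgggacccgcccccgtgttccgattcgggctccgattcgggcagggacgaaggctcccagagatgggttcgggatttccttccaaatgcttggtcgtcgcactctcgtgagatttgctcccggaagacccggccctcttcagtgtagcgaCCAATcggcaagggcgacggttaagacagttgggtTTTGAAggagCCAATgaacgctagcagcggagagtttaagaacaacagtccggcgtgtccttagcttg
Cenpa: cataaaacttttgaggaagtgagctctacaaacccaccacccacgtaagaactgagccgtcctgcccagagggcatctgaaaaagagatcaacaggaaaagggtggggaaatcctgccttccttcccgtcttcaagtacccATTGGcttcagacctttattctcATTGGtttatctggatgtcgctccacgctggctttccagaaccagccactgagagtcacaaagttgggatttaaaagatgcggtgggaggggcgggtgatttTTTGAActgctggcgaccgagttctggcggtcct
Cdk4: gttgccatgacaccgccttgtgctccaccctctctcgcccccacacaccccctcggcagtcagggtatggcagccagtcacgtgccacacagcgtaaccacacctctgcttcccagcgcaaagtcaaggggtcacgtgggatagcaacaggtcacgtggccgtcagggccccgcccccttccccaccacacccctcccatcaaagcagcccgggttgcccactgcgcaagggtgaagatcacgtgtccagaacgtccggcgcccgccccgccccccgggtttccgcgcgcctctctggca
The Mcm5 and Mcm6 windows hold E2F words and no CHR word, the Cdc20 and Cenpa windows hold a CHR word and no E2F word, the Cdk1 window holds both, and the Cdk4 window holds none of the 3 kinds. An E2F word was present in 8 of the 35 windows of these genes (22.9%), against 2.26% of all 32817 windows, and the 8 included 6 of the 9 windows of licensing genes. The CHR word was present in 14 of the 35 windows (40.0%), against 17.9% of all windows. It was in 5 of 7 windows of mitotic kinase and checkpoint genes and in 5 of 6 windows of chromosome and spindle genes, and neither of these sets held an E2F word. CCAAT was present in 26 of the 35 windows (74.3%), against 37.4% of all windows. These are matches of letters in a short window and show no binding.

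In WT livers most of the 42 genes were lower in HSCs than in LSECs and higher in LSECs than in hepatocytes. These levels come from 1 scaling over the 12 WT libraries and so differ from the CPM values within a cell type. Between WT HSCs and WT LSECs, 28 of the 42 genes were called, all 28 lower in HSCs, where 56.8% of all 13389 genes tested were called in either direction, 29.7% higher and 27.1% lower in HSCs. The median log2 fold change was -1.38 over the 42 genes and 0.01 over all genes. Between WT HSCs and WT hepatocytes, 19 were called (11 higher and 8 lower in HSCs) against a background of 79.1% (43.2% higher, 35.9% lower), and between WT LSECs and WT hepatocytes 31 were called (29 higher and 2 lower in LSECs) against 79% (42.7% higher, 36.3% lower). The share between HSCs and hepatocytes, 45.2% of the 42 genes, was below its background.

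Per kilobase of exon, a G1 gene was the most abundant of the 42 in each cell type. Cdk4, the kinase partner of the D cyclins, was highest in LSECs (48.0 CPM per kilobase) and in hepatocytes (12.0 CPM per kilobase), and Ccnd2 in HSCs (41.1 CPM per kilobase). Ccnd2, a D-type cyclin, reached 386 ± 63.02 CPM in WT HSCs and 317 ± 38.03 CPM in WT LSECs, but only 0.135 ± 0.234 CPM in WT hepatocytes (SD, n = 4 each). Ccnd1, another D-type cyclin, had 12.1 ± 2.48 CPM in WT HSCs, 78.1 ± 17.9 CPM in WT LSECs and 35.7 ± 23.1 CPM in WT hepatocytes. Ccnd1 was lower in HSCs than in LSECs (log2 fold change -2.69 ± 0.37, SE; adjusted p = 2.42e-05), whereas Ccnd2 was not called between them (adjusted p = 0.438). Ccnd3, the remaining D-type cyclin, had 166 ± 24.02, 237 ± 22.6 and 40.4 ± 3.03 CPM in WT HSCs, LSECs and hepatocytes. Cdk4 had 87.7 ± 7.397, 156 ± 8.65 and 38.9 ± 2.58 CPM in the same 3 cell types, and no library of one reached the range of another. All 3 differences of Cdk4 were called, with log2 fold changes of -0.83 ± 0.10 for HSCs over LSECs, 1.17 ± 0.10 for HSCs over hepatocytes and 2.001 ± 0.10 for LSECs over hepatocytes (SE).

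Several licensing and chromosome genes were much higher in LSECs than in the other cell types. Mcm3, a helicase subunit, had 35.7, 26.8, 24.9 and 31.6 CPM in the WT HSC libraries, 137, 159.9, 136 and 133 CPM in the WT LSEC libraries and 5.23, 5.62, 2.47 and 8.102 CPM in the WT hepatocyte libraries. No library of one cell type reached the range of another, and the log2 fold change of LSECs over hepatocytes was 4.71 ± 0.27 (SE; adjusted p = 1.03e-09). Cenpa, which marks centromeres, had 6.43, 9.82, 6.75 and 7.44 CPM in the WT HSC libraries, 43.1, 42.1, 46.5 and 43.6 CPM in the WT LSEC libraries and 7.68, 6.25, 2.24 and 5.001 CPM in the WT hepatocyte libraries. It was lower in HSCs than in LSECs (log2 fold change -2.53 ± 0.26, SE; adjusted p = 1.71e-06), while HSCs and hepatocytes overlapped. E2f1, the S-phase transcription factor, was also lower in HSCs than in LSECs (-3.62 ± 0.50, SE; adjusted p = 2.48e-05). Rrm2 and Tyms were highest in hepatocytes. Rrm2, the small subunit of ribonucleotide reductase, had 1.52 ± 1.02, 5.76 ± 2.65 and 13.2 ± 6.58 CPM in WT HSCs, LSECs and hepatocytes, and Tyms, thymidylate synthase, 5.15 ± 0.982, 7.04 ± 0.793 and 12.8 ± 3.11 CPM. Both were lower in HSCs than in hepatocytes (adjusted p = 9.65e-05 for Rrm2 and 3.13e-05 for Tyms) and in LSECs than in hepatocytes (adjusted p = 0.0354 and 0.00104). The Rrm2 call between LSECs and hepatocytes was lost, at adjusted p up to 0.115, without WT replicate 1 or 4 of hepatocytes or WT replicate 1, 3 or 4 of LSECs. The 2 other genes of nucleotide supply and the replication clamp were higher in LSECs than in hepatocytes. Rrm1, the large subunit of the reductase, had 23.5 ± 2.58, 60.2 ± 5.08 and 20.7 ± 1.79 CPM in WT HSCs, LSECs and hepatocytes (adjusted p = 1.88e-08 for LSECs over hepatocytes). Pcna had 24.8 ± 0.594, 39.1 ± 4.63 and 22.5 ± 2.81 CPM (adjusted p = 3.48e-05). Mki67, the gene of the Ki-67 proliferation antigen, stayed low in all 3 cell types, at 0.536 ± 0.348, 2.67 ± 0.893 and 1.48 ± 1.34 CPM.

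**Figure D1:**
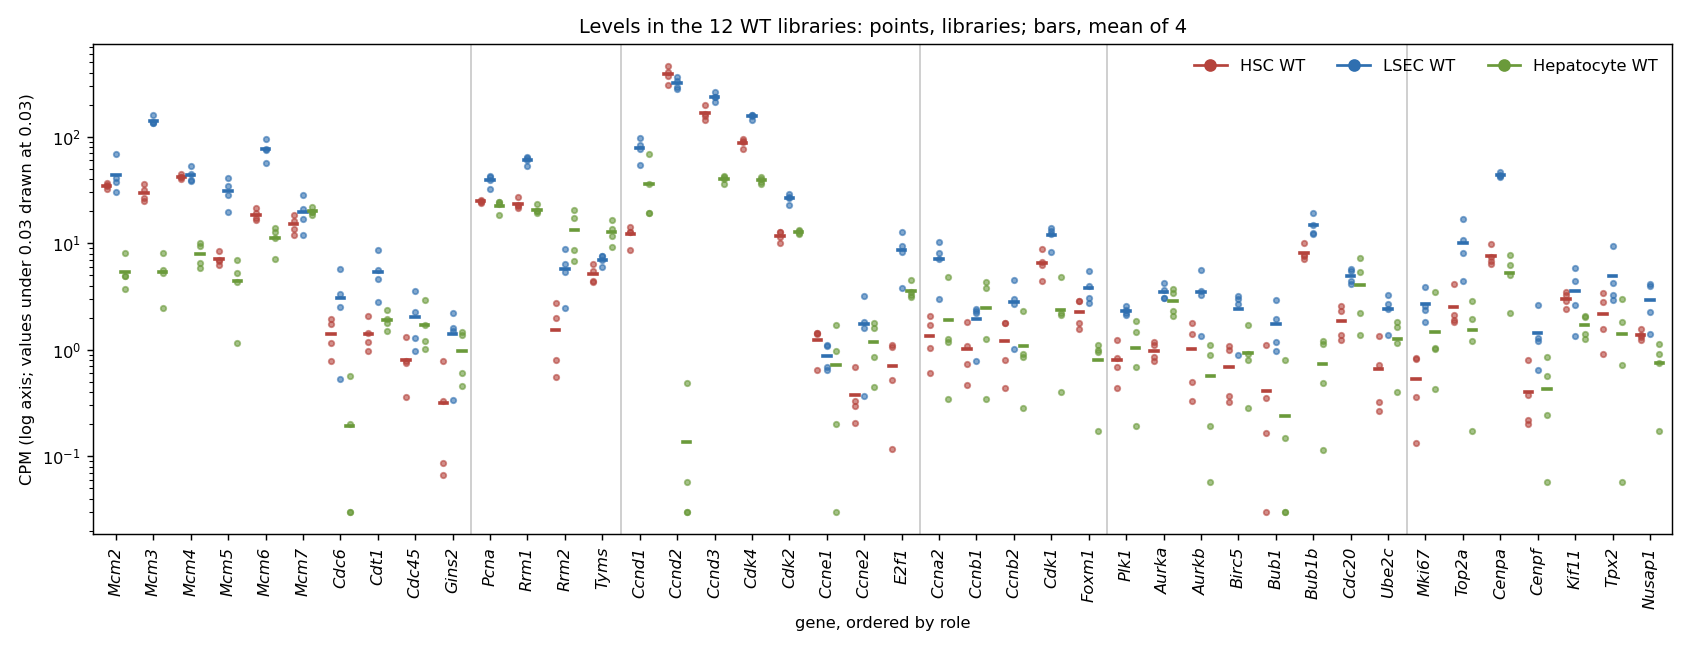
Level of each of the 42 genes (CPM, log axis, values under 0.03 drawn at 0.03) in the WT libraries of HSCs, LSECs and hepatocytes, with genes grouped by role. Each point is 1 library. The LSEC points lie above the HSC points for most genes, Ccnd2 is near 0 in hepatocytes, and Rrm2 and Tyms are highest in hepatocytes.

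At 12 h after the toxin, Cdk4 was higher and Cenpa lower than in WT, both in HSCs and in LSECs. In HSCs 4 of the 42 genes were called against WT (9.52%), where 32% of all 12676 genes tested were called. Cdk4 and Pcna were higher and Cenpa and Birc5 lower, where 17% of all genes were called higher and 15.1% lower. In LSECs 2 of the 42 were called against WT (4.76%), Cdk4 higher and Cenpa lower, where 18.2% of all 12286 genes were called, 9.74% higher and 8.5% lower. Both shares are below the background. Libraries of HSCs and of LSECs with the same replicate number deviated together, with correlations of 0.12 to 0.35 at 12 h and 0.14 to 0.20 at 36 h, so the 2 cell types are not taken as independent of each other. The median log2 fold change over the list was 0.20 in HSCs and 0.33 in LSECs, beside 0.01 and -0.02 over all genes.

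From 12 h to 36 h Cdk4 fell and Cenpa, Birc5 and Bub1b rose in both HSCs and LSECs. In LSECs 11 of the 42 genes were called at 36 h against 12 h (26.2%), where 21.3% of all genes were called. Of these, 9 were higher (Rrm2, Ccne1, Ccna2, Aurkb, Birc5, Bub1b, Top2a, Cenpa and Nusap1) and 2 lower (Ccnd1 and Cdk4), where 10.6% of all genes were called higher and 10.8% lower. In HSCs 5 were called at 36 h against 12 h, with Mcm4, Birc5, Bub1b and Cenpa higher and Cdk4 lower (11.9%), where 27.9% of all genes were called, 12.9% higher and 15% lower. Set against WT, no member was called at 36 h in either cell type by edgeR: in HSCs 0.142% of all genes were called (0.134% higher, 0.00789% lower) and in LSECs 0%. In HSCs 8 of the 42 had an unadjusted p under 0.05, as had 6.85% of all genes, and in LSECs 29 of the 42 had one, as had 10.5% of all genes. DESeq2 called 0 members in HSCs at 36 h against WT, where it called 1.02% of all genes, and 3 in LSECs (Aurka, Ccnb1 and Plk1, all higher), where it called 0.887% of all genes. The 36 h estimates nevertheless lay mostly above 0, for 39 of 42 genes in HSCs (median log2 fold change 0.51) and for 38 of 42 in LSECs (median 1.01), where 48.7% and 51% of all genes had an estimate above 0. The comparisons of 12 h with WT and of 36 h with 12 h share the 12 h libraries, and those of 12 h and 36 h with WT share the WT libraries. Whether fewer cells in cycle or less RNA in each cell lies behind a level in these bulk libraries cannot be told apart.

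The number of calls moved with single libraries, and the shares of all genes called in these fits are not given here. In HSCs at 12 h against WT the count was 2 without replicate 3 at 12 h, replicate 1 at 36 h or WT replicate 4, and 7 without replicate 4 at 36 h, which enters through the shared estimate of spread. In LSECs at 12 h against WT it was 4 without WT replicate 2 and 8 without replicate 4 at 36 h. In LSECs at 36 h against 12 h it was 4 without replicate 3 at 12 h and 5 without replicate 4 at 12 h. There it was 6 without replicate 2 or replicate 4 at 36 h, and 7 without replicate 3 at 36 h or WT replicate 4. In HSCs at 36 h against 12 h it was 9 without replicate 3 at 36 h.

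**Figure D2:**
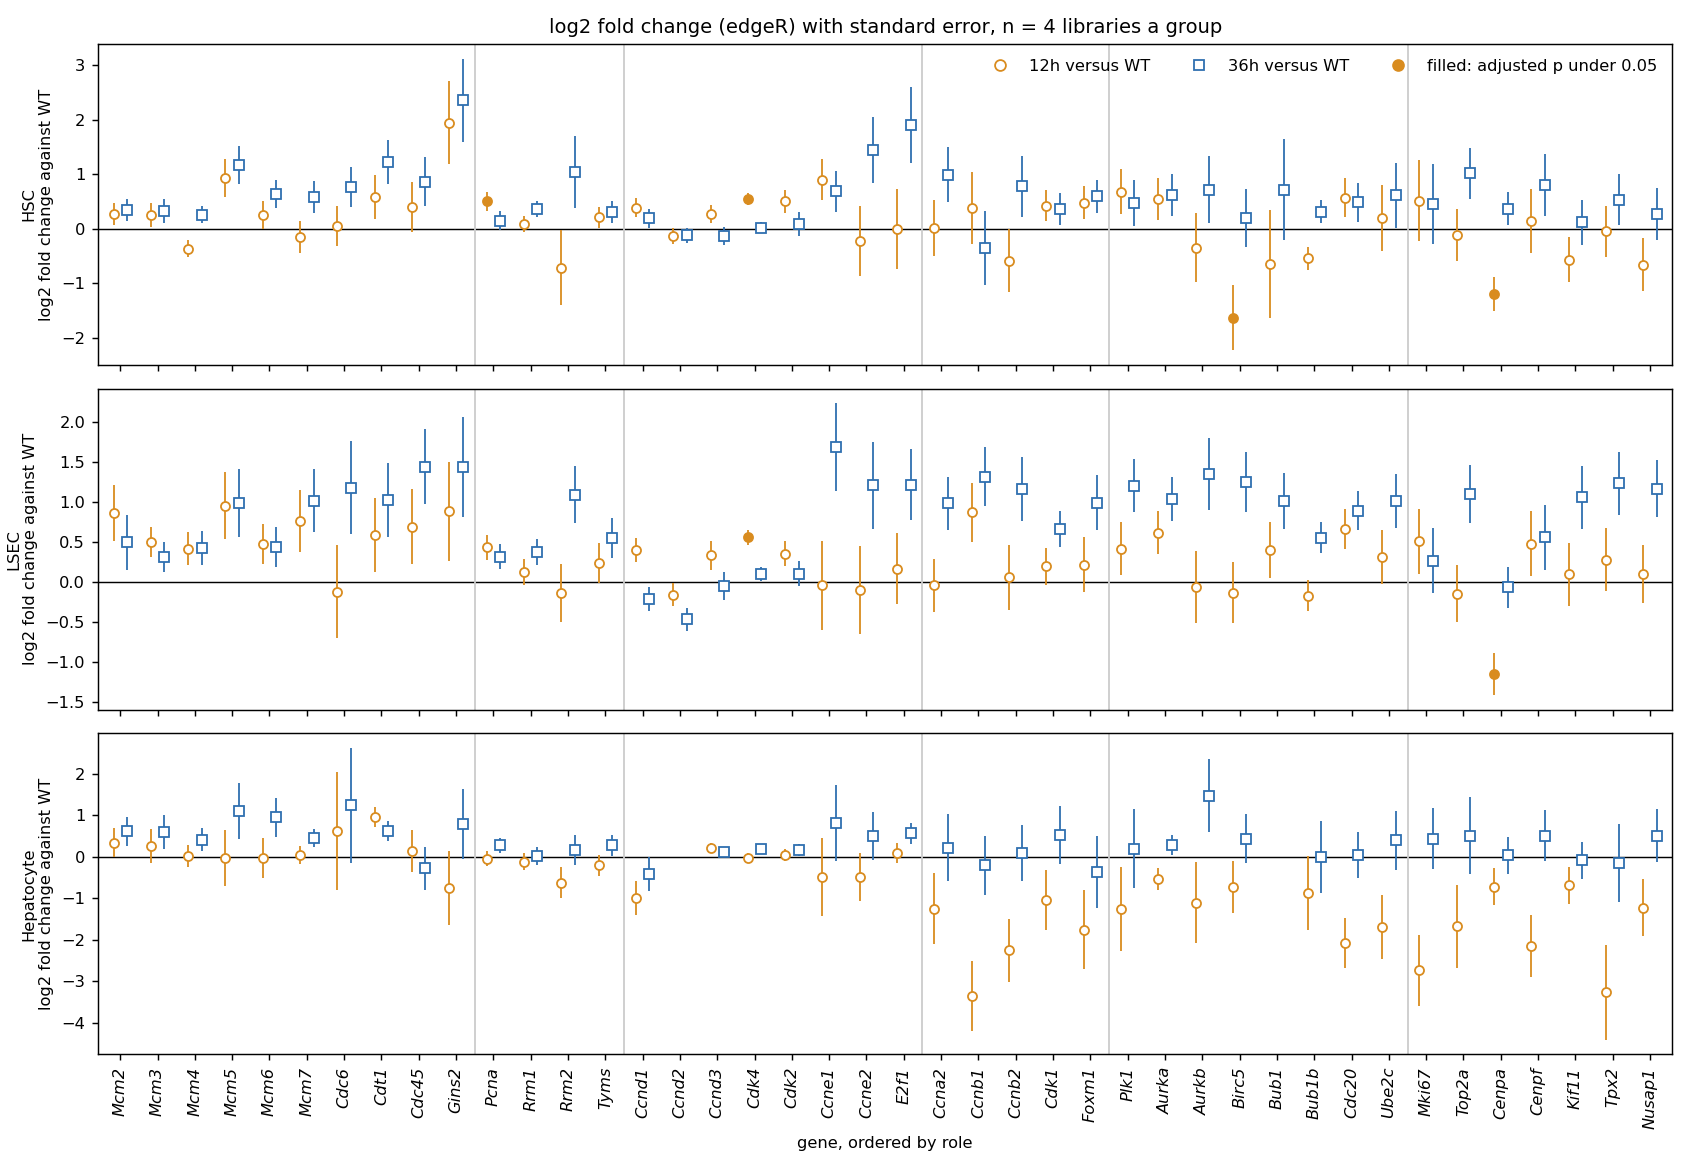
Log2 fold change over WT (± SE) of each gene at 12 h and at 36 h in HSCs, LSECs and hepatocytes, in 3 panels, with genes grouped by role; filled points have an adjusted p under 0.05. Filled points appear only at 12 h, for Cdk4, Pcna, Cenpa and Birc5 in HSCs and for Cdk4 and Cenpa in LSECs.

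None of the 10 licensing and helicase genes was called in LSECs, and 9 of the 10 had an estimate above 0 at 12 h over WT. Their summed level was 463 ± 91.2 CPM in WT, 699.5 ± 96.6 CPM at 12 h and 666 ± 332 CPM at 36 h (SD, n = 4), or 507 ± 122 CPM at 36 h without replicate 4 (SD, n = 3). Mcm2 to Mcm7 form the ring of the helicase. Mcm2 had 37.5, 86.02, 47.7 and 51.4 CPM in WT LSECs, 86.6, 93.9, 124 and 100.5 CPM at 12 h and 48.4, 83.4, 40.2 and 143 CPM at 36 h. Mcm3 had 171, 202, 173 and 168 CPM in WT, 223, 247, 287 and 254 CPM at 12 h and 176, 229, 158 and 324 CPM at 36 h. Mcm5 had 24.7, 51.8, 35.7 and 43.1 CPM in WT, 59.2, 58.3, 104 and 80.05 CPM at 12 h and 37.8, 65.2, 36.6 and 169 CPM at 36 h. All 12 h libraries were above all WT libraries for Mcm2, Mcm3 and Mcm5, while at 36 h replicates 1 and 3 were no higher than the WT range and replicate 4 was the highest of all 12 libraries. The log2 fold changes at 12 h over WT were 0.87 ± 0.34 for Mcm2, 0.50 ± 0.18 for Mcm3 and 0.96 ± 0.42 for Mcm5 (SE), with adjusted p = 0.0978, 0.0725 and 0.131. Mcm7 had 15.04, 35.7, 21.6 and 26.1 CPM in WT, 36.99, 35.3, 47.9 and 47.3 CPM at 12 h and 27.95, 43.96, 24.1 and 104 CPM at 36 h, with the 12 h and WT libraries overlapping. Mcm6 had 70.2, 121, 94.9 and 96.9 CPM in WT, 132, 111, 159.9 and 131 CPM at 12 h and 102, 119, 82.8 and 215 CPM at 36 h, and Mcm4 47.7, 67.6, 49.4 and 55.96 CPM in WT, 72.6, 55.6, 83.5 and 83.3 CPM at 12 h and 57.5, 72.6, 54.5 and 112 CPM at 36 h. In a fit of the WT and 12 h libraries alone, and in the fit without replicate 4 at 36 h, 8 of the 42 genes were called, and these were Mcm2, Mcm3, Mcm5, Mcm7, Pcna, Cdk4 and Cdc20 (higher) and Cenpa (lower). The shares of all genes called in these fits are not given here, so the count of 8 has no background beside it.

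The loaders of the helicase and its activators were scarcer. Cdc6, which helps to load the helicase, had 0.666, 7.197, 4.29 and 3.17 CPM in WT LSECs, 4.99, 3.88, 2.38 and 2.805 CPM at 12 h and 4.26, 9.35, 3.76 and 17.4 CPM at 36 h. Cdt1, its partner in loading, had 3.47, 10.8, 5.86 and 7.04 CPM in WT, 10.5, 9.64, 12.6 and 8.18 CPM at 12 h and 6.57, 11.8, 6.06 and 31.1 CPM at 36 h. Cdc45, the helicase activator, had 1.23, 4.46, 1.64 and 2.85 CPM in WT, 4.16, 3.46, 4.24 and 4.56 CPM at 12 h and 4.03, 6.92, 2.78 and 13.9 CPM at 36 h. Groups overlapped for all 3 genes, and replicate 1 was the lowest of the WT libraries and replicate 4 the highest of the 36 h libraries in each case. At 36 h Cdc45 had the largest estimate of the licensing genes over WT, 1.44 ± 0.47 (SE; adjusted p = 0.337), and 0.85 without replicate 4 (adjusted p = 0.816). Gins2, a subunit of the GINS complex, shares 67.3% of its exon length with Gse1 on the opposite strand, and as the strand setting of the counting is not known, its level of 0.421 to 2.78 CPM in WT LSECs cannot be separated from that gene.

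In HSCs Mcm4 was the only licensing gene called. The summed level of licensing genes was 172 ± 10.2 CPM in WT, 188 ± 26.3 CPM at 12 h and 237 ± 83.6 CPM at 36 h (SD, n = 4). Mcm5 had 9.62, 7.76, 7.17 and 7.94 CPM in WT HSCs, 18.5, 16.6, 17.2 and 9.65 CPM at 12 h and 13.5, 15.6, 8.34 and 35.9 CPM at 36 h. All 12 h libraries were above all WT libraries, replicate 4 only just, and at 36 h replicate 3 fell in the WT range. Mcm5 was not called at 12 h over WT (log2 fold change 0.93 ± 0.35, SE; adjusted p = 0.057) or at 36 h over WT (1.17 ± 0.35, adjusted p = 0.349). Mcm4 had its lower values at 12 h, with 51.4, 47.3, 47.5 and 45.4 CPM in WT, 40.7, 46.1, 29.8 and 32.3 CPM at 12 h and 52.7, 61.2, 45.3 and 69.7 CPM at 36 h. It was higher at 36 h than at 12 h (0.62 ± 0.15 on the log2 scale, SE; adjusted p = 0.00913), although 36 h replicate 3 lay just under 12 h replicate 2, and it was not called at 12 h against WT (adjusted p = 0.0861). Its call between 36 h and 12 h held in all 17 alternatives. The other helicase subunits overlapped between groups: Mcm3 had 28.4 to 40.7 CPM in WT, 28.1 to 57.98 CPM at 12 h and 31.9 to 58.5 CPM at 36 h, and Mcm7 13.7 to 20.97 CPM in WT, 9.5002 to 20.4 CPM at 12 h and 16.5 to 42.2 CPM at 36 h.

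Among the genes of the replication clamp and nucleotide supply, Pcna was higher at 12 h in HSCs. It had 28.3, 27.5, 29.2 and 27.9 CPM in WT HSCs, 44.3, 37.6, 44.8 and 33.2 CPM at 12 h and 27.1, 26.9, 24.6 and 46.4 CPM at 36 h. The 12 h libraries were all above the WT libraries, and at 36 h replicates 1, 2 and 3 were below the WT range and replicate 4 above every 12 h library. The log2 fold change at 12 h over WT was 0.50 ± 0.18 (SE; adjusted p = 0.044). The call held in 8 of 17 alternatives and was lost, at adjusted p up to 0.1003, with a replicate block and without any one of replicates 1, 2 or 3 at 12 h, replicate 1 at 36 h or any single WT replicate. In LSECs Pcna had 40.7, 53.8, 49.6 and 53.1 CPM in WT, 73.7, 53.8, 74.8 and 64.2 CPM at 12 h and 53.7, 61.2, 49.6 and 81.5 CPM at 36 h. All 12 h libraries were above all WT libraries, replicate 2 only just, and Pcna was not called at 12 h over WT (0.43 ± 0.16, adjusted p = 0.0738).

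Rrm2 in LSECs was higher at 36 h than at 12 h. It had 3.09, 11.2, 6.78 and 8.004 CPM in WT LSECs, 9.11, 6.97, 4.31 and 6.04 CPM at 12 h and 9.88, 20.1, 10.9 and 21.04 CPM at 36 h. Every 36 h library was above every 12 h library, with a log2 fold change of 1.23 ± 0.36 (SE; adjusted p = 0.0272), but WT replicate 2 lay above 36 h replicates 1 and 3. The call held in 13 of 17 alternatives and was lost, at adjusted p up to 0.0726, without replicate 3 or 4 at 12 h or replicate 2 or 4 at 36 h (log2 fold change 1.04 and adjusted p = 0.0695 without replicate 4). Rrm1, the large subunit, had 98.6 ± 25.2 CPM at 36 h against 82.7 ± 11.3 CPM at 12 h, and Tyms 13.03 ± 5.89 CPM at 36 h against 10.4 ± 1.03 CPM at 12 h (SD, n = 4 each), and neither was called. At 36 h over 12 h the log2 fold change was 0.25 ± 0.16 for Rrm1 (SE; adjusted p = 0.279) and 0.32 ± 0.25 for Tyms (SE; adjusted p = 0.401). Without replicate 4 at 36 h these were 0.07 (adjusted p = 0.758) and 0.01 (adjusted p = 0.984).

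Cdk4 gave the clearest G1 result. The gene (chr10:127063534-127067920, plus strand, mm10) had 88.1, 101, 103 and 107 CPM in WT HSCs, 142, 139, 159.7 and 141 CPM at 12 h and 96.4, 96.4, 94.6 and 119 CPM at 36 h. In LSECs it had 179, 202, 206 and 199 CPM in WT, 274, 278, 317 and 289.9 CPM at 12 h and 204, 218, 193 and 227 CPM at 36 h. In both cell types all 4 libraries at 12 h were above all 8 others. The log2 fold change at 12 h over WT was 0.54 ± 0.11 in HSCs (adjusted p = 0.00195) and 0.56 ± 0.09 in LSECs (adjusted p = 0.00138), and at 36 h against 12 h it was -0.52 ± 0.11 in HSCs (adjusted p = 0.00299) and -0.46 ± 0.09 in LSECs (adjusted p = 0.00357; all SE). All 4 calls held in all 17 alternatives, and without replicate 4 at 36 h the LSEC difference between 36 h and 12 h was -0.51 (adjusted p = 0.00366). Cdk4 shares 19.7% of its exon length with Tspan31 on the opposite strand. Tspan31 had a log2 fold change at 12 h over WT of 0.38 in HSCs (adjusted p = 0.0442) and of 0.15 in LSECs (adjusted p = 0.525), and its part in the Cdk4 counts was not tested.

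Of the cyclins that partner Cdk4, only Ccnd1 was called between times, in LSECs. There Ccnd1 had 68.2, 123, 97.2 and 105 CPM in WT, 131, 132, 128 and 129 CPM at 12 h and 76.1, 82.3, 82.4 and 98.97 CPM at 36 h. The 12 h libraries lay close together and above the rest, and Ccnd1 was lower at 36 h than at 12 h (-0.61 ± 0.15 on the log2 scale, SE; adjusted p = 0.0099; held in all 17 alternatives, at -0.70 without replicate 4), but not called at 12 h over WT (adjusted p = 0.0735). Ccnd2 in LSECs had 351, 459.6, 372 and 417 CPM in WT, 336, 433, 273 and 393 CPM at 12 h and 291, 325, 284 and 259 CPM at 36 h. All 36 h libraries were below all WT libraries, without a call (log2 fold change -0.47 ± 0.14, SE; adjusted p = 0.325; -0.41 and adjusted p = 0.707 without replicate 4). Ccnd3 overlapped between all groups in both cell types. In HSCs Ccnd1 had 9.75, 16.4, 14.6 and 14.4 CPM in WT, 16.9, 20.4, 18.6 and 16.01 CPM at 12 h and 14.2, 18.1, 12.1 and 18.6 CPM at 36 h and was not called in any comparison. Ccnd1 shares 23.4% of its exon length with an opposite-strand gene.

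The E-type cyclins and E2f1 act at entry into S phase. Ccne1, which activates CDK2, had 0.807, 1.37, 0.884 and 1.39 CPM in WT LSECs, 1.34, 0.942, 1.21 and 0.818 CPM at 12 h and 1.32, 2.596, 1.42 and 9.07 CPM at 36 h. Its call at 36 h over 12 h (log2 fold change 1.73 ± 0.55, SE; adjusted p = 0.0381) came with a level in replicate 4 above the other 11 libraries. Without that library the estimate was 0.71 and the call was lost (adjusted p = 0.188), as it also was in a fit of the 2 groups alone, with a replicate block, and without any one of the 12 h replicates or WT replicate 4 (adjusted p up to 0.188). E2f1 had 4.77, 16.1, 10.4 and 11.8 CPM in WT LSECs, 11.6, 11.2, 11.6 and 14.1 CPM at 12 h and 13.6, 21.6, 10.8 and 54.6 CPM at 36 h. In LSECs its groups overlapped, and replicate 4 at 36 h was far above every other library. Its log2 fold change at 36 h over WT was 1.22 ± 0.44 (SE; adjusted p = 0.37), and 0.51 without replicate 4. In HSCs Ccne1 had 0.72996, 1.63, 1.63 and 1.59 CPM in WT and 3.26, 2.105, 2.52 and 2.54 CPM at 12 h, all 12 h libraries being higher, with no call (log2 fold change 0.90 ± 0.37, SE; adjusted p = 0.0799). Cdk2, the kinase of the E and A cyclins, had 11.4, 14.6, 14.7 and 13.1 CPM in WT HSCs, 14.1, 17.1, 22.98 and 22.1 CPM at 12 h and 11.6, 10.8, 13.7 and 21.2 CPM at 36 h. Its groups overlapped, and neither Cdk2 nor Ccne2 was called in any comparison between times in HSCs or LSECs.

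**Figure D3:**
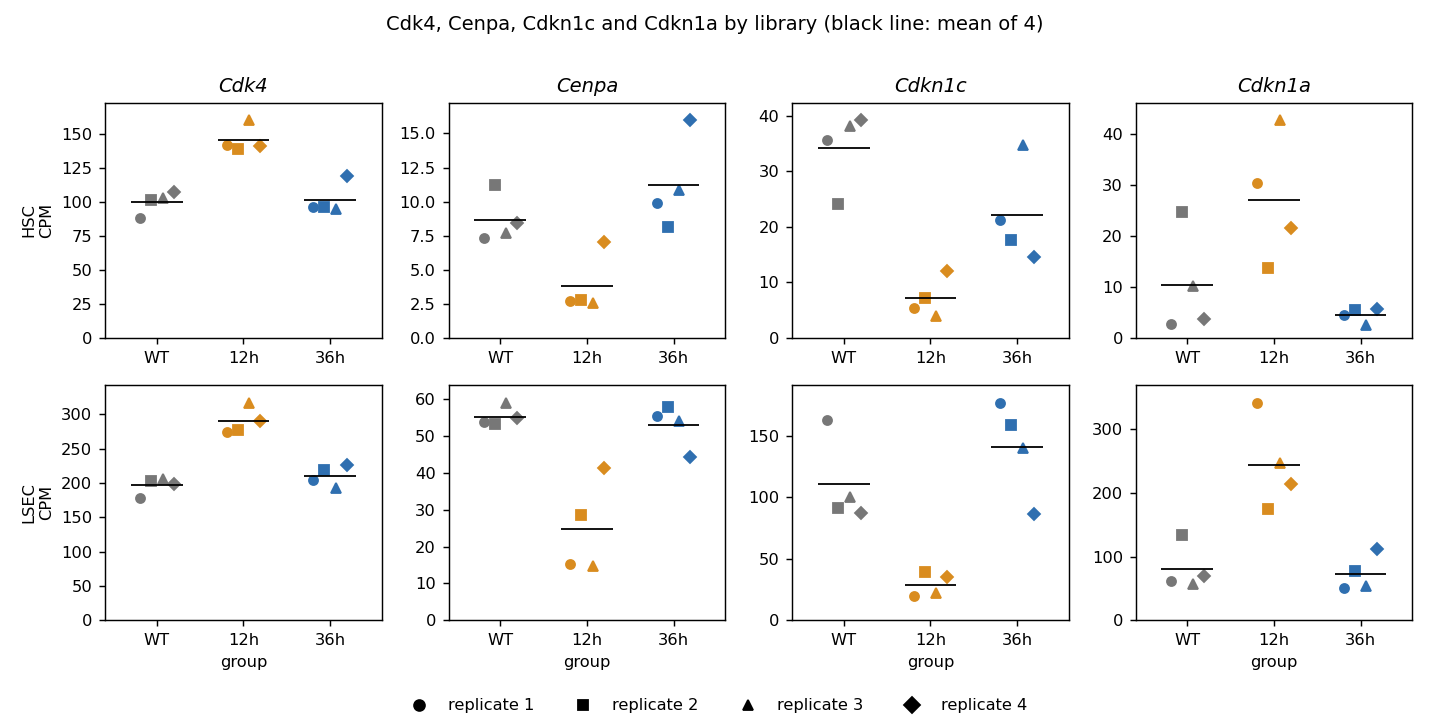
CPM in each library of HSCs and LSECs in WT, at 12 h and at 36 h for Cdk4, Cenpa, Cdkn1c and Cdkn1a (a cyclin-dependent kinase inhibitor each for the last pair). Points are libraries. Cdk4 stands higher and Cenpa and Cdkn1c lower at 12 h than in WT in both cell types, and Cdkn1a stands higher at 12 h than in WT in LSECs.

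Ccna2 was the only S, G2 or M cyclin called in LSECs, higher at 36 h than at 12 h. Their summed level with Cdk1 and Foxm1 was 34.7 ± 10.6 CPM in WT, 39.6 ± 3.77 CPM at 12 h and 65.1 ± 21.9 CPM at 36 h (SD, n = 4), or 55.9 ± 14.6 CPM at 36 h without replicate 4 (SD, n = 3). Ccna2, cyclin A2, had 3.75, 12.98, 9.07 and 10.2 CPM in WT, 9.39, 8.81, 6.24 and 10.6 CPM at 12 h and 10.8, 21.6, 14.3 and 24.8 CPM at 36 h. All 36 h libraries were above all 12 h libraries, replicate 1 only just, and WT replicate 2 was above 36 h replicate 1. Its log2 fold change at 36 h over 12 h was 1.03 ± 0.33 (SE; adjusted p = 0.0411), and the call held in 8 of 17 alternatives. It was lost, at adjusted p up to 0.108, without any one of the 12 h replicates, replicate 2, 3 or 4 at 36 h, or WT replicate 3 or 4 (log2 fold change 0.82 and adjusted p = 0.108 without replicate 4 at 36 h). Ccnb1, cyclin B1, had 0.982, 3.05, 2.95 and 2.81 CPM in WT, 4.16, 5.72, 4.89 and 3.19 CPM at 12 h and 3.01, 7.41, 5.45 and 8.55 CPM at 36 h. Here the 12 h libraries were already all above WT, and neither time was called over WT (log2 fold change 0.88 ± 0.37 at 12 h, adjusted p = 0.116, and 1.32 ± 0.37 at 36 h, adjusted p = 0.308; SE). Without replicate 4 at 36 h the Ccnb1 estimate at 36 h over WT was 1.11. Cdk1 had 10.3, 15.4, 16.5 and 17.5 CPM in WT, 13.9, 16.8, 19.4 and 18.3 CPM at 12 h and 16.4, 23.6, 18.99 and 35.5 CPM at 36 h. Ccnb2, Cdk1 and Foxm1, the last a transcription factor of G2 and M genes, were not called, with log2 fold changes at 36 h over WT of 1.17 ± 0.40, 0.66 ± 0.23 and 0.99 ± 0.34 (SE), and of 1.15, 0.40 and 0.66 without replicate 4. In HSCs the same set summed to 14.2 ± 4.27 CPM in WT, 17.6 ± 5.14 CPM at 12 h and 19.9 ± 7.75 CPM at 36 h, and none of the 5 was called.

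Of the 8 mitotic kinase and checkpoint genes, Aurkb, Birc5 and Bub1b were called in LSECs, all higher at 36 h than at 12 h. The summed level of the 8 was 44.8 ± 8.51 CPM in WT, 50.8 ± 8.72 CPM at 12 h and 83.9 ± 25.8 CPM at 36 h (SD, n = 4), or 74.5 ± 21.9 CPM at 36 h without replicate 4 (SD, n = 3). Each had an estimate above 0 and an unadjusted p under 0.05 at 36 h over WT with all 4 libraries, without a call. Plk1, the Polo kinase, had 3.23, 3.01, 2.68 and 2.81 CPM in WT, 3.09, 6.36, 3.38 and 2.84 CPM at 12 h and 3.32, 6.78, 6.5004 and 10.5 CPM at 36 h. Aurka, Aurora kinase A, had 3.79, 5.33, 3.86 and 4.55 CPM in WT, 8.15, 6.704, 7.48 and 4.597 CPM at 12 h and 4.77, 9.69, 8.57 and 13.1 CPM at 36 h. Replicates 2, 3 and 4 at 36 h were above every WT library for both, and replicate 1 was above it too for Plk1, only just, and within the WT range for Aurka. The log2 fold change at 36 h over WT was 1.21 ± 0.33 for Plk1 (adjusted p = 0.308) and 1.04 ± 0.27 for Aurka (SE; adjusted p = 0.306). Without replicate 4 these were 0.92 (adjusted p = 0.645) and 0.81 (adjusted p = 0.616).

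The libraries behind these 3 calls differed. Aurkb, the kinase of the chromosomal passenger complex, had 1.68, 7.04, 4.19 and 4.52 CPM in WT, 5.71, 4.18, 1.72 and 5.06 CPM at 12 h and 5.08, 15.1, 8.57 and 15.6 CPM at 36 h. Birc5, survivin of the same complex, had 1.12, 4.04, 3.405 and 3.74 CPM in WT, 2.54, 3.13, 1.72 and 3.86 CPM at 12 h and 4.47, 8.204, 6.43 and 10.2 CPM at 36 h. Bub1b, which encodes the checkpoint protein BubR1, had 15.3, 18.8, 24.3 and 15.9 CPM in WT, 17.2, 21.5, 12.4 and 14.9 CPM at 12 h and 20.04, 29.6, 29.8 and 29.8 CPM at 36 h. Birc5 at 36 h was above both other groups in every library, whereas for Aurkb and Bub1b replicate 1 at 36 h fell in the range of the 12 h libraries. The log2 fold changes at 36 h over 12 h were 1.41 ± 0.45 for Aurkb (adjusted p = 0.0401), 1.38 ± 0.38 for Birc5 (adjusted p = 0.0189) and 0.73 ± 0.20 for Bub1b (adjusted p = 0.0183; all SE). Birc5 lost its call in 1 of 17 alternatives (adjusted p = 0.0515 without replicate 3 at 12 h), and Bub1b in 2 (up to 0.0528, without replicate 3 at 12 h or at 36 h). Aurkb lost it in 8 (up to 0.0989), those without replicate 2, 3 or 4 at 12 h, replicate 2, 3 or 4 at 36 h, or WT replicate 3 or 4. Without replicate 4 at 36 h the estimates were 1.19 for Aurkb (adjusted p = 0.0955), 1.17 for Birc5 (adjusted p = 0.048) and 0.67 for Bub1b (adjusted p = 0.0399).

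In HSCs Birc5 was lower at 12 h than in WT, and Birc5 and Bub1b were higher at 36 h than at 12 h. Birc5 had 0.365, 1.13, 0.418 and 1.22 CPM in WT HSCs, 0.2897, 0.238, 0.113 and 0.363 CPM at 12 h and 0.613, 0.775, 0.399 and 1.82 CPM at 36 h, which rested on 3 to 10 counts in the 12 h libraries and 11 to 52 in the others. Its 12 h values were below all WT and all 36 h values, though only just below WT replicate 1, with a log2 fold change at 12 h over WT of -1.63 ± 0.59 (SE; adjusted p = 0.0495) and at 36 h over 12 h of 1.83 ± 0.59 (SE; adjusted p = 0.0339). The first call held in 8 of 17 alternatives and was lost, at adjusted p up to 0.142, with no filter on low counts and without any one of the 12 h replicates, replicate 1 or 2 at 36 h, or WT replicate 2 or 4. The second held in 12 of 17 and was lost, at up to 0.129, without replicate 1, 2 or 3 at 12 h or replicate 2 or 4 at 36 h. Bub1b had 11.5, 8.08, 8.92 and 8.69 CPM in WT, 8.44, 7.13, 4.28 and 5.698 CPM at 12 h and 13.1, 13.8, 10.4 and 8.96 CPM at 36 h. Every 36 h library was above every 12 h library (log2 fold change 0.86 ± 0.21, SE; adjusted p = 0.00917; held in all 17 alternatives), and the difference at 12 h from WT was not called (adjusted p = 0.0663). The 6 other genes of this set were not called in HSCs.

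Cdc20 and Ube2c encode the activator and the ubiquitin carrier of the anaphase-promoting complex. In LSECs Cdc20 had 5.58, 6.89, 7.24 and 5.23 CPM in WT, 9.83, 11.3, 8.69 and 9.699 CPM at 12 h and 6.84, 12.3, 9.18 and 18.03 CPM at 36 h. All 12 h libraries were above all WT libraries, without a call (log2 fold change 0.66 ± 0.25, SE; adjusted p = 0.0778), and at 36 h replicate 1 lay within the WT range. Its log2 fold change at 36 h over WT was 0.89 ± 0.25 (SE; adjusted p = 0.308), and 0.60 without replicate 4. Ube2c had 1.72, 4.15, 3.04 and 3.38 CPM in WT, 2.82, 4.75, 2.79 and 4.99 CPM at 12 h and 3.32, 6.68, 5.76 and 9.18 CPM at 36 h, and it shares 22.8% of its exon length with Tnnc2 on the opposite strand. Bub1, the checkpoint kinase, was also not called in LSECs, with a log2 fold change of 1.02 ± 0.35 at 36 h over WT (SE), and 0.92 without replicate 4.

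Cenpa was the only chromosome gene called against WT, lower at 12 h in both non-parenchymal cell types. The gene (chr5:30666777-30674830, plus strand, mm10) had 7.33, 11.2, 7.71 and 8.44 CPM in WT HSCs, 2.72, 2.82, 2.59 and 7.04 CPM at 12 h and 9.905, 8.14, 10.8 and 15.96 CPM at 36 h. In LSECs it had 53.8, 53.2, 59.03 and 54.9 CPM in WT, 15.2, 28.4, 14.7 and 41.3 CPM at 12 h and 55.4, 57.7, 54.1 and 44.4 CPM at 36 h. The 12 h libraries were below all others in both cell types, and replicate 4 at 12 h, a number at which the HSC and LSEC libraries deviated together, was the highest of its group in both. The log2 fold change at 12 h over WT was -1.19 ± 0.32 in HSCs (adjusted p = 0.0115) and -1.15 ± 0.26 in LSECs (adjusted p = 0.00847), and at 36 h over 12 h it was 1.56 ± 0.32 in HSCs (adjusted p = 0.00288) and 1.09 ± 0.26 in LSECs (adjusted p = 0.00978; all SE). All 4 calls held in all 17 alternatives, and without replicate 4 at 36 h the LSEC difference between 36 h and 12 h was 1.16 (adjusted p = 0.0106). Unlike most of the 42 genes, Cenpa was lower in LSEC replicate 4 at 36 h than in the other 36 h libraries.

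Top2a and Nusap1 were also higher at 36 h than at 12 h in LSECs. Top2a, topoisomerase II alpha, had 5.51, 21.4, 10.3 and 13.5 CPM in WT, 16.8, 11.4, 7.07 and 10.6 CPM at 12 h and 18.95, 36.2, 20.1 and 33.3 CPM at 36 h. Nusap1, which bundles spindle microtubules, had 1.75, 5.18, 2.88 and 4.98 CPM in WT, 5.33, 4.82, 2.24 and 3.47 CPM at 12 h and 5.38, 10.2, 7.04 and 10.6 CPM at 36 h. Both were higher in every 36 h library than in any 12 h library, while for Top2a WT replicate 2 lay within the 36 h range. The log2 fold change at 36 h over 12 h was 1.24 ± 0.36 for Top2a (SE; adjusted p = 0.0271) and 1.07 ± 0.36 for Nusap1 (SE; adjusted p = 0.0477). The Top2a call held in 12 of 17 alternatives and was lost, at adjusted p up to 0.0735, without replicate 2, 3 or 4 at 12 h or replicate 2 or 4 at 36 h. The Nusap1 call held in 8 of 17 and was lost, at up to 0.116, with no filter on low counts and without replicate 2, 3 or 4 at either time or WT replicate 3 or 4. Without replicate 4 at 36 h the estimates were 1.12 for Top2a (adjusted p = 0.0604) and 0.92 for Nusap1 (adjusted p = 0.107). Kif11, the spindle kinesin, Tpx2, an activator of Aurora A, and Cenpf, a kinetochore protein, were not called, with log2 fold changes at 36 h over 12 h of 0.97 ± 0.39, 0.95 ± 0.39 and 0.08 ± 0.40 (SE), and of 0.88, 0.76 and -0.03 without replicate 4. Kif11 had 1.68, 7.43, 3.37 and 5.51 CPM in WT, 7.25, 4.71, 3.07 and 4.17 CPM at 12 h and 6.46, 12.98, 7.35 and 10.7 CPM at 36 h, with replicates 2 and 4 the highest at 36 h. Mki67 had 3.23, 4.95, 2.32 and 2.95 CPM in WT, 7.08, 7.65, 1.96 and 2.45 CPM at 12 h and 3.38, 3.18, 4.2997 and 5.32 CPM at 36 h, all 3 groups overlapping.

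**Figure D4:**
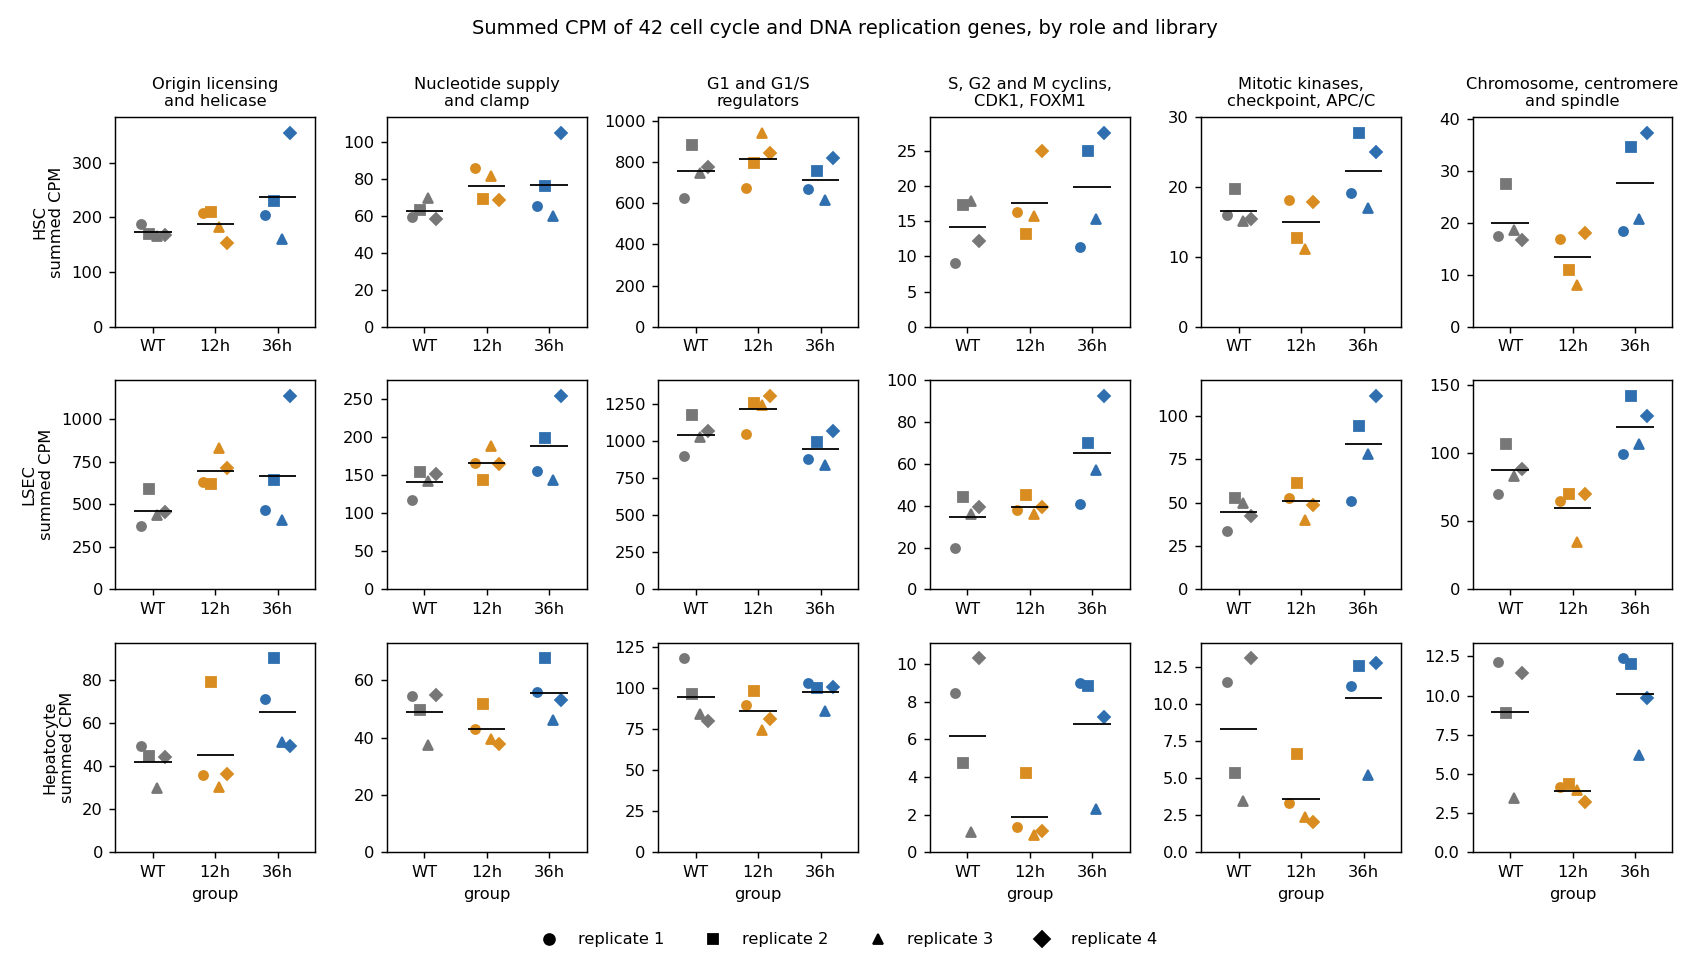
Summed CPM of each of 6 role sets (columns) in HSCs, LSECs and hepatocytes (rows) in WT, at 12 h and at 36 h; each marker is 1 library with its replicate number and the black line is the group mean. In LSECs the licensing sum is 466, 644, 411 and 1141 CPM in the 36 h libraries, and replicate 4 stands far above the other 3.

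Replicate 4 held the highest level of the 36 h libraries for 34 of the 42 genes in LSECs and for 34 of the 42 in HSCs. The sums of the 6 role sets by library show this for each cell type. The count of 34 was not made over all genes, so whether the list differs from other genes in this was not tested. In LSECs replicate 4 exceeded the mean of replicates 1 to 3 by a median factor of 3.02 over the 10 licensing genes (1.72 to 5.14), 1.67 over the 8 mitotic kinase and checkpoint genes and 1.33 over the 7 chromosome genes. The licensing sum was 466, 644, 411 and 1141 CPM in replicates 1 to 4 at 36 h, against 372, 589, 436 and 456 CPM in WT replicates 1 to 4. The mitotic sum was 51.1, 94.5, 77.9 and 112 CPM at 36 h, against 33.9, 53.01, 49.9 and 42.5 CPM in WT. Replicates 2 and 4 stood highest for both sums, and replicates 1 and 3 were within the WT range for licensing.

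Without replicate 4, the median log2 fold change of the 42 genes at 36 h over WT in LSECs was 0.51 in place of 1.01, and 38 estimates were above 0 either way. The licensing median was 0.26 in place of 1.005, the nucleotide median 0.23 in place of 0.47, and the G1 median 0.03 in place of 0.10. The cyclin median was 0.79 in place of 0.99, the mitotic median 0.86 in place of 1.03 and the chromosome median 0.99 in place of 1.06. No gene of the list was called at 36 h over WT with or without this library. At 36 h against 12 h the count of called genes without it was 6 in place of 11: Birc5, Bub1b and Cenpa higher, and Mcm3, Ccnd1 and Cdk4 lower. The share of all genes called in that fit is not given here. The licensing median in that comparison was -0.40 without replicate 4 in place of 0.14. By library, none of the 10 licensing genes was above all WT libraries in replicates 1 and 3, 8 were in replicate 2 and all 10 in replicate 4. For the 8 mitotic genes the numbers were 2 in replicate 1, 8 in replicate 2, 7 in replicate 3 and 8 in replicate 4. The same counts were not made over all genes, so whether these sets differ from other genes in this was not tested.

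Markers of other cells also differed in the same library, in both directions. In LSECs at 36 h, the 10 hepatocyte markers summed to 61.7, 74.4, 259.6 and 419 CPM in replicates 1 to 4, against 166, 42.4, 179.8 and 121 CPM in WT, and all 10 had counts. The 10 stellate markers summed to 328, 393, 394 and 739 CPM at 36 h, against 331, 271, 284 and 269 CPM in WT. The monocyte and neutrophil markers summed to 7.28, 2.32, 12.6 and 27.4 CPM at 36 h, against 9.96, 6.93, 9.46 and 14.8 CPM in WT. Replicate 4 was the highest of the 4 libraries for all 3 lists. It was also the highest for lymphocyte markers (6.51 CPM) and for erythroid and platelet markers (34.5 CPM). For Kupffer cell markers it was the lowest, at 542 CPM against a mean of 789.6 CPM in replicates 1 to 3. Cholangiocyte markers were lowest in it too (0.929 CPM, against a mean of 1.55 CPM). The part of these cells in its cell cycle levels was not tested. In HSCs without replicate 4 the median at 36 h over WT was 0.24 in place of 0.51, with 33 of 42 estimates above 0 in place of 39, and the stellate markers in that library summed to the lowest of the group, at 66692, 69339.7, 62929 and 40431 CPM in replicates 1 to 4.

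Some markers of monocytes and macrophages also stood apart in replicate 4 of the HSCs at 36 h. The monocyte and neutrophil markers summed to 1.77, 1.66, 1.45 and 5.495 CPM in replicates 1 to 4, while the 11 Kupffer cell markers summed to 685, 815, 662 and 556 CPM, lowest in replicate 4. Of the Kupffer cell markers, Cd5l, a macrophage scavenger protein, had 0.0681, 0.317, 0.145 and 5.43 CPM and Marco, a scavenger receptor, 0.03404, 0, 0 and 3.29 CPM. Adgre1, the gene of the macrophage antigen F4/80, had 0.0681, 0.247, 0.181 and 1.51 CPM and Clec4f, a lectin of Kupffer cells, 0, 0, 0 and 0.735 CPM. All 4 of these genes were highest in replicate 4, and their part in its cell cycle levels was not tested.

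**Figure D5:**
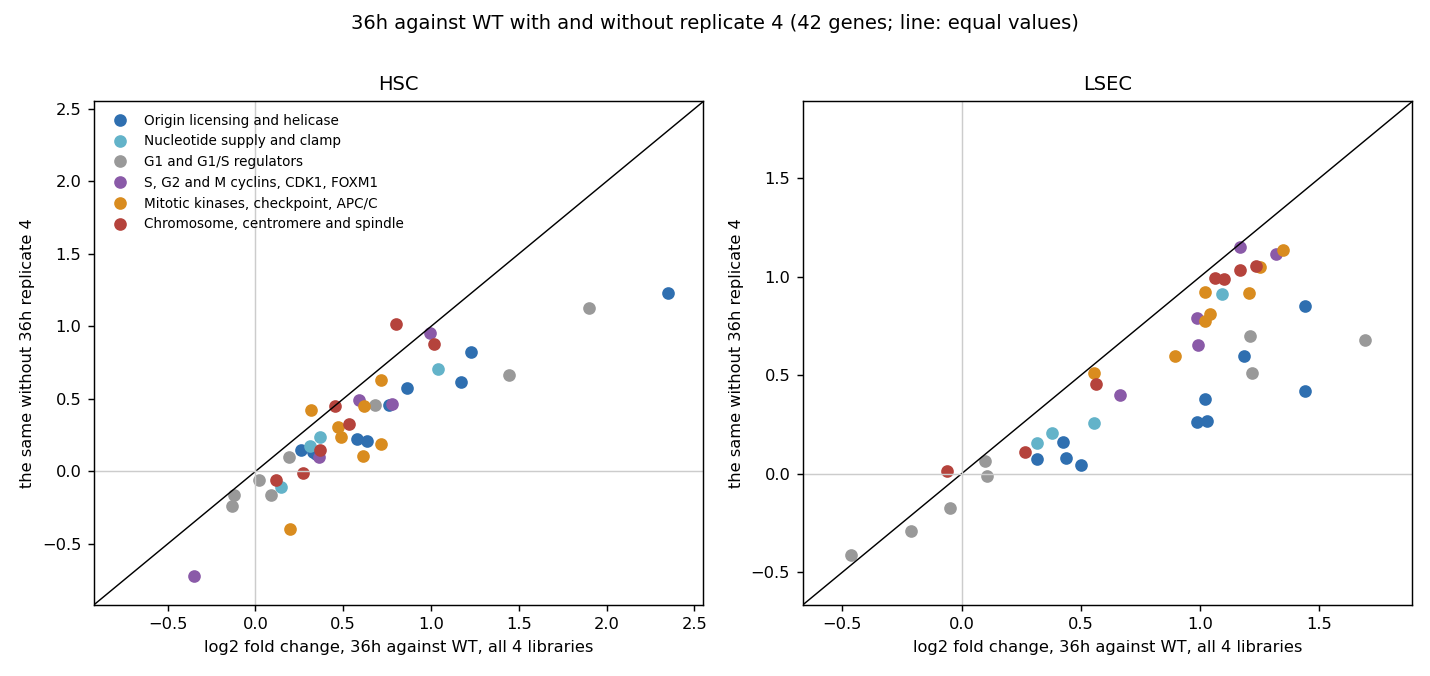
Log2 fold change at 36 h over WT of each gene with all 4 libraries (horizontal axis) and without replicate 4 of the 36 h group (vertical axis), in HSCs and LSECs, coloured by role. The licensing genes of LSECs lie farthest below the diagonal, with a median of 1.005 with and 0.26 without replicate 4.

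Kupffer cell markers were lower at 12 h than in WT in HSCs and overlapped in LSECs. In HSCs the 11 markers summed to 142 to 521 CPM at 12 h, against 586 to 906 CPM in WT, with Clec4f, Timd4 and Cd163 at 0 in all 12 h libraries. In LSECs they summed to 631 to 985 CPM at 12 h, against 696 to 859 CPM in WT, with Timd4 at 0 at 12 h. The erythroid and platelet markers of LSECs summed to 16.9 to 36.3 CPM at 12 h, against 10.1 to 14.2 CPM in WT, and the stellate markers to 161 to 229.8 CPM at 12 h, against 269 to 331 CPM in WT. The part of these cells in the changes of Cdk4, Cenpa and the other genes was not tested.

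No gene of the list was called in hepatocytes, where the mitotic genes had their lower values at 12 h. Of the 40 genes tested (Ccnd2 and Bub1 were too low), edgeR called 0 at 12 h against WT, where 0% of all 11326 genes were called, and 9 of the 40 had an unadjusted p under 0.05, as had 4% of all genes. DESeq2 called 2, Ccnb1 lower and Cdt1 higher, and 0.397% of all genes. At 36 h against WT edgeR called 0 of the 40 and 0% of all genes, with 2 members and 4.98% of all genes at an unadjusted p under 0.05, and DESeq2 called 0 members and 0.53% of all genes. At 36 h against 12 h edgeR called 0 of the 40 and 0% of all genes, with 12 members and 6.4% of all genes at an unadjusted p under 0.05. There DESeq2 called 2, Ccnb1 and Mki67 higher, and 0.221% of all genes. The median log2 fold change was -0.66 at 12 h over WT, 0.34 at 36 h over WT and 0.93 at 36 h over 12 h, beside -0.01, 0.00 and 0.01 over all genes.

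Ccnb1 had 2.79, 0.897, 0.237 and 3.05 CPM in WT hepatocytes, 0.0597, 0.441, 0.139 and 0.0344 CPM at 12 h and 2.81, 0.902, 0.879 and 1.45 CPM at 36 h. Cdc20 had 3.93, 1.59, 0.949 and 5.11 CPM in WT, 0.358, 1.46, 0.417 and 0.516 CPM at 12 h and 3.17, 3.72, 1.12 and 3.97 CPM at 36 h. Mki67 had 0.3102, 0.725, 0.712 and 2.42 CPM in WT, 0, 0.204, 0.243 and 0.172 CPM at 12 h and 0.393, 0.866, 1.56 and 2.83 CPM at 36 h. The 12 h libraries were below all WT libraries for Mki67, whereas for Ccnb1 and Cdc20 replicate 2 at 12 h was above WT replicate 3. The log2 fold change at 12 h over WT was -3.35 ± 0.84 for Ccnb1 (adjusted p = 0.506), -2.07 ± 0.61 for Cdc20 (adjusted p = 0.691) and -2.74 ± 0.86 for Mki67 (adjusted p = 0.814; all SE). The summed level of the 10 licensing genes was 49.3, 44.6, 29.6 and 44.3 CPM in WT replicates 1 to 4, 35.8, 78.98, 30.1 and 36.5 CPM at 12 h and 70.97, 90.03, 51.1 and 49.4 CPM at 36 h. Replicate 2 stood far above the other 3 libraries at 12 h. The numbers of licensing genes above all WT libraries were 1, 9, 1 and 1 in 12 h replicates 1 to 4, and the numbers below all WT libraries were 2, 0, 4 and 1. Such counts were not made over all genes. Cdt1 was the only licensing gene with every 12 h library above every WT library. Cdt1 had 1.72, 1.28, 1.03 and 1.37 CPM in WT, 2.69, 2.95, 2.33 and 2.55 CPM at 12 h and 1.93, 1.55, 2.52 and 2.34 CPM at 36 h, without a call by edgeR (log2 fold change at 12 h over WT 0.96 ± 0.24, SE; adjusted p = 0.506). Mcm6 had 8.24, 9.83, 4.95 and 8.96 CPM in WT, 4.42, 17.8, 3.13 and 6.02 CPM at 12 h and 16.4, 24.4, 10.2 and 10.999 CPM at 36 h, and 12 h replicates 1 and 3 were below every WT library, while every 36 h library was above every WT library (at 36 h over WT, log2 fold change 0.96 ± 0.47, SE; adjusted p = 1). The summed level of licensing genes was 41.97 ± 8.53 CPM in WT, 45.3 ± 22.6 CPM at 12 h and 65.4 ± 19.1 CPM at 36 h, and that of mitotic kinase and checkpoint genes 8.35 ± 4.68 CPM in WT, 3.597 ± 2.09 CPM at 12 h and 10.4 ± 3.56 CPM at 36 h (SD, n = 4).

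Most markers of Kupffer cells were at 0 in the hepatocyte libraries at 12 h. Of the 11 Kupffer cell markers, Clec4f, Timd4, Cd5l, Vsig4, Marco, Adgre1, Folr2 and Cd163 were at 0 in all 12 h libraries, whereas all 11 had counts in WT. Clec4f had 0 CPM in each 12 h library, against 2.17, 5.07, 0.119 and 0.455 CPM in WT. The 11 summed to 232, 199.5, 243 and 300.1 CPM at 12 h, against 328, 252, 233 and 238 CPM in WT, and overlapped. The monocyte and neutrophil markers summed to 1.82, 0.407, 0 and 0 CPM at 12 h, against 3.93, 5.42, 0.237 and 0.28002 CPM in WT, and overlapped too. The part of these cells in the levels of the mitotic genes was not tested.

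The hepatocyte libraries fell on both sides of a gap in Malat1, a nuclear RNA. It was at 242 to 479 CPM in WT replicates 1 and 2, 12 h replicate 1 and 36 h replicates 1 and 2, and at 24.8 to 44.9 CPM in the other 7 libraries. Within the 7 libraries of low Malat1 the log2 fold changes at 12 h over WT were -2.97 for Ccnb1 (adjusted p = 0.728), -1.92 for Cdc20 (adjusted p = 0.803), -2.90 for Mki67 (adjusted p = 0.302) and 1.12 for Cdt1 (adjusted p = 0.521). The median over the list there was -0.08, against -0.66 in all libraries and -0.44 with the Malat1 side as a term. At 36 h over WT the medians were 0.35 among the libraries of high Malat1, 0.19 among those of low Malat1 and 0.35 with the term. With 1 library of high Malat1 at 12 h, that side gave no value at 12 h. Ccnd1 had 49.8, 25.8, 13.3 and 13.4 CPM in WT, 13.1, 17.98, 7.301 and 12.8 CPM at 12 h and 25.5, 17.4, 11.9 and 21.5 CPM at 36 h, and its log2 fold change at 12 h over WT was -1.001 ± 0.41 in all libraries (SE), against -0.07 within low Malat1.

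The difference between the responses of 2 cell types was tested in 1 fit of all 36 libraries. At 12 h over WT, 4 of the 42 genes responded lower in hepatocytes than in HSCs, where 9.2% of 14104 genes differed, 4.17% higher and 5.03% lower. These were Ccnd1 (difference of log2 fold changes -1.31 ± 0.41, adjusted p = 0.0375), Cdk4 (-0.52 ± 0.15, adjusted p = 0.0278), Ccnb1 (-3.69 ± 1.02, adjusted p = 0.0197) and Cdc20 (-2.58 ± 0.65, adjusted p = 0.0114; all SE). Against LSECs, 3 genes responded lower in hepatocytes, where 3.57% of all genes differed, 1.6% higher and 1.97% lower: Cdk4 (-0.54 ± 0.15, adjusted p = 0.0421), Ccnb1 (-4.18 ± 0.998, adjusted p = 0.0171) and Cdc20 (-2.68 ± 0.63, adjusted p = 0.0166; all SE). Cdk4 in hepatocytes had 27.3, 28.5, 28.96 and 25.4 CPM in WT and 28.7, 30.02, 23.95 and 25.1 CPM at 12 h, overlapping, with a log2 fold change of -0.03 ± 0.13 (SE). Both sets of differences share the hepatocyte libraries, and their dependence on the Malat1 side was not tested beyond the hepatocyte values within low Malat1 given above. Between LSECs and HSCs no gene of the list differed by edgeR in its response at 12 h (background 1.62%, of which 0.801% higher and 0.822% lower). There 1 of the 42 had an unadjusted p under 0.05, as had 11.7% of all genes, and DESeq2 called 0 members and 3.3% of all genes.

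At 36 h over WT no response difference was called by edgeR or by DESeq2: the background was 0% between LSECs and HSCs and 0.00709% for hepatocytes against either. For LSECs minus HSCs 0 of the 42 had an unadjusted p under 0.05, as had 4.02% of all genes, and DESeq2 called 0.0851% of all genes. For hepatocytes minus HSCs it was again 0 of the 42, and 6.64% of all genes, and DESeq2 called 0.454% of all genes. For hepatocytes minus LSECs it was 1 of the 42, and 6.9% of all genes, and DESeq2 called 0.674% of all genes. The 12 h counts moved with single libraries, and the shares of all genes called in these fits are not given here. Against HSCs the count was 9 without replicate 2 at 12 h of hepatocytes, 2 without replicate 3 and 1 without replicate 4 of that group, and 2 without 12 h replicate 3 or WT replicate 1 of HSCs. Against LSECs it was 6 without replicate 2 at 12 h of hepatocytes and 5 without WT replicate 3 of hepatocytes. Cdc20 kept both calls in all 40 alternatives. Ccnb1 kept them in 37 against HSCs and 40 against LSECs, Cdk4 in 34 and 27, and Ccnd1 kept its call against HSCs in 29.

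Several brakes of the cycle changed at 12 h in HSCs and LSECs. The list held 20 brakes. Of these, 10 were CDK inhibitors and Rb family genes (Cdkn1a, Cdkn1b, Cdkn1c, Cdkn2a, Cdkn2b, Cdkn2c, Cdkn2d, Rb1, Rbl1 and Rbl2), and the others were E2f4, E2f5, E2f7, E2f8, Btg1, Btg2, Gadd45a, Gadd45b, Ccng1 and Ccng2. Of the 20, 19 were tested in HSCs and in LSECs. In HSCs at 12 h against WT, 2 were higher and 3 lower (26.3% called, against 32% of all genes), and in LSECs 1 was higher and 4 lower (26.3%, against 18.2%). Cdkn1c, which encodes the CDK inhibitor p57, had 35.7, 24.04, 38.2 and 39.2 CPM in WT HSCs, 5.47, 7.16, 4.06 and 12.1 CPM at 12 h and 21.2, 17.6, 34.7 and 14.7 CPM at 36 h. In LSECs it had 163, 91.7, 100.1 and 87.6 CPM in WT, 19.6, 38.9, 22.3 and 35.6 CPM at 12 h and 177, 158, 140.4 and 86.2 CPM at 36 h. All 12 h libraries were below all others in both cell types, with a log2 fold change over WT of -2.25 ± 0.33 in HSCs (adjusted p = 0.0003) and -1.93 ± 0.28 in LSECs (SE; adjusted p = 0.000728). Cdkn1a, which encodes the inhibitor p21, had 61.2, 134, 56.7 and 69.6 CPM in WT LSECs, 342, 174, 247 and 214 CPM at 12 h and 51.5, 77.3, 53.4 and 112 CPM at 36 h. It rose at 12 h in LSECs (1.60 ± 0.31, SE; adjusted p = 0.00373), all 12 h libraries being above all WT libraries.

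Ccng2, an unconventional cyclin linked to arrest, was lower at 12 h in both cell types. In HSCs it fell to 16.5 ± 5.53 CPM at 12 h, against 32.2 ± 4.18 CPM in WT (log2 fold change -0.96 ± 0.21, adjusted p = 0.0041). In LSECs it fell to 24.4 ± 4.46 CPM at 12 h, against 37.4 ± 4.58 CPM in WT (-0.61 ± 0.15, adjusted p = 0.0113). Cdkn1b, the gene of the inhibitor p27, fell at 12 h in LSECs to 6.27 ± 1.199 CPM, against 9.38 ± 1.18 CPM in WT (adjusted p = 0.0256; lost without 12 h replicate 3 or WT replicate 2 or 4). In HSCs the stress-response genes Gadd45a and Gadd45b went apart: Gadd45a fell at 12 h to 7.49 ± 3.04 CPM, against 14.3 ± 1.72 CPM in WT (adjusted p = 0.00935). Gadd45b rose to 18.2 ± 14.9 CPM at 12 h, against 3.95 ± 3.67 CPM in WT (adjusted p = 0.0162; lost without 12 h replicate 1). At 36 h against WT none of the 19 was called in either cell type, and 6 in HSCs and 7 in LSECs had an estimate above 0.

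Few replication and mitosis genes outside the 42 were called at 12 h. In HSCs at 12 h against WT, 4 of 37 other replication genes were higher and 2 lower, where 17% of all genes were called higher and 15.1% lower, with Uhrf1, a partner of maintenance methylation, at 10.1 ± 5.55 CPM at 12 h against 1.81 ± 1.32 CPM in WT (adjusted p = 0.0188; lost without 12 h or WT replicate 3). Pold2, a polymerase delta subunit, and Pole2, a polymerase epsilon subunit, were higher at 12 h (adjusted p = 0.0243 and 0.0297), and Gins3 lower (adjusted p = 0.0253). These 3 calls were each lost without some single library. In LSECs 1 of 40 was called, where 18.2% of all genes were, and this was Dbf4, the activator of the CDC7 kinase, at 14.4 ± 2.81 CPM at 12 h against 9.32 ± 0.812 CPM in WT (log2 fold change 0.63 ± 0.17, SE; adjusted p = 0.0186; lost without WT replicate 4). Of other mitosis genes, 1 of 42 was higher and 3 lower in HSCs at 12 h against WT, against the same shares of 17% and 15.1%. In LSECs 0 of 45 were called by edgeR, with 1 at an unadjusted p under 0.05, as had 32.7% of all genes. Anln, the cytokinesis scaffold anillin, fell in HSCs to 14.6, 16.8, 6.797 and 16.9 CPM at 12 h, against 55.4, 44.1, 54.7 and 45.5 CPM in WT (log2 fold change -1.86 ± 0.22, SE; adjusted p = 9.27e-05; held in all 17 alternatives). Cks1b, an accessory subunit of CDKs, was higher in HSCs at 12 h (adjusted p = 0.0376), and its paralogue Cks2 and the checkpoint gene Mad2l1 lower (adjusted p = 0.029 and 0.0407). The Cks1b and Cks2 calls held in 11 of 17 alternatives and the Mad2l1 call in 7.

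At 36 h against WT none of these genes was called by edgeR, though in LSECs, with all 4 libraries, all 45 other mitosis genes had an estimate above 0 (median log2 fold change 0.93; 31 at an unadjusted p under 0.05), as had 35 of 40 other replication genes (median 0.39; 17 at an unadjusted p under 0.05). Over all genes 51% had an estimate above 0 and 10.5% an unadjusted p under 0.05. In HSCs 36 of 42 mitosis genes (median 0.44) and 30 of 37 replication genes (median 0.22) had an estimate above 0. At 36 h against 12 h in LSECs, 9 mitosis genes were higher and 0 lower, 6 replication genes higher and 1 lower, and 4 brakes higher and 2 lower, where 10.6% of all genes were called higher and 10.8% lower. In HSCs the same comparison had 5 mitosis genes higher and 0 lower, 5 replication genes higher and 1 lower, and 3 brakes each way, where 12.9% of all genes were called higher and 15% lower. In hepatocytes 0 genes of the 3 lists were called by edgeR in any comparison, and at 12 h against WT 5, 0 and 1 of the mitosis, replication and brake genes had an unadjusted p under 0.05, as had 4% of all genes.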

How the data were processed

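Gene counts of 36 libraries were used as the authors deposited them, 1 file a library with 24421 gene symbols and 5 closing lines that name no gene. Per the submitters' processing notes, FastQC 0.11.4, Trimmomatic 0.35, TopHat2 2.1.0, SAMtools 0.1.18 and the mm10 build were used; the counter, its strand setting and its gene models were not given in the sources used here. The closing lines were kept out of library sizes and tests, and reads in no gene came to 4.9% to 9.02% of a library. No pair of libraries within a group was identical (54 pairs).

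Counts were fitted with edgeR 4.0.16 (quasi-likelihood, TMM scaling, filterByExpr with a minimum count of 10 and a minimum total of 15) in R 4.3.3, with 1 fit of 3 groups per cell type, 1 of the 12 WT libraries and 1 of all 9 groups for differences between responses. Adjusted p-values are Benjamini-Hochberg over all genes tested, and the SE of a log2 fold change was derived from its F statistic. The script was tested on simulated data. The alternatives were DESeq2 1.42.0, relative log expression (RLE) in place of TMM, all genes without the filter, a fit limited to the compared pair of groups, a replicate block, each library left out, and, in hepatocytes, a term for Malat1 on either side of 100 CPM. The split by Malat1 and the response differences without replicate 4 of HSCs and LSECs at 36 h were added after seeing the data.

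The 42 genes, their 6 role sets, the 3 pathway lists and the marker lists were chosen with earlier results of these data known. All 42 genes are accounted for, with values by library for those called against WT or between responses and for those of the role set described; pathway genes are named for the smallest adjusted p, up to 4 a list, at 12 h over WT. Positions are from GENCODE vM21 and promoter windows from RefSeq.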

Additional observations from a re-analysis of the deposited data

Results flagged for a closer look

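Among 303 combinations of a gene of the list and a group of 4 libraries with a mean of at least 1 CPM, 15 (4.95%) held a library whose distance from the nearest other library was above Dixon's 95% critical share of the range of the group, about the 5% that chance gives. In HSCs these were, at 12 h, Cdk4 at 159.7 CPM in replicate 3 (others 139 to 142 CPM) and Cenpa at 7.04 CPM in replicate 4 (others 2.59 to 2.82 CPM). At 36 h they were Gins2 at 4.87 CPM (others 0.471 to 1.06 CPM), Pcna at 46.4 CPM (others 24.6 to 27.1 CPM) and Cdk4 at 119 CPM (others 94.6 to 96.4 CPM), all 3 in replicate 4. In WT HSCs they were Ccne1 at 0.730 CPM in replicate 1, below 1.59 to 1.63 CPM in the others, and Top2a at 4.72 CPM in replicate 2 (others 2.09 to 2.41 CPM).

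In LSECs at 12 h, E2f1 was at 14.1 CPM in replicate 4 (others 11.2 to 11.6 CPM) and Plk1 at 6.36 CPM in replicate 2 (others 2.84 to 3.38 CPM). At 36 h Ccne1 was at 9.07 CPM in replicate 4 (others 1.32 to 2.596 CPM), and Bub1b was at 20.04 CPM in replicate 1, below 29.6 to 29.8 CPM in the others. In WT LSECs Mcm3 was at 202 CPM in replicate 2 (others 168 to 173 CPM), and Ccnb1 was at 0.982 CPM in replicate 1, below 2.81 to 3.05 CPM in the others. In hepatocytes Mcm5 was at 8.01 CPM in replicate 2 at 12 h (others 1.078 to 1.91 CPM), and Mcm3 at 7.65 CPM in replicate 2 at 36 h (others 4.96 to 5.37 CPM).

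The response at 12 h over WT differed between hepatocytes and HSCs, with differences of log2 fold changes of -1.31 for Ccnd1, -0.52 for Cdk4, -3.69 for Ccnb1 and -2.58 for Cdc20. Between hepatocytes and LSECs it differed by -0.54 for Cdk4, -4.18 for Ccnb1 and -2.68 for Cdc20. The test was edgeR's quasi-likelihood test of the difference itself. The Ccnd1 estimate in hepatocytes was smaller in size within the libraries of low Malat1, as given above. The calls of Ccnd1, Cdk4 and Ccnb1 against HSCs, and of Cdk4 against LSECs, did not hold in all alternatives.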

How the results depend on the processing

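The Cdk4 and Cenpa calls in HSCs and in LSECs, at 12 h against WT and at 36 h against 12 h, held in each of 17 alternatives. No gene of the list that was called in the main fit changed direction in an alternative. Estimates without a call could change sign: the licensing median in LSECs at 36 h over 12 h was 0.14, and -0.40 without replicate 4 at 36 h. DESeq2 called 7 genes of the list in HSCs at 12 h against WT (35.6% of all genes) and 10 at 36 h against 12 h (32.1%). In LSECs it called 6 at 12 h against WT (22.7%), 14 at 36 h against 12 h (26.1%) and 3 at 36 h against WT, and in hepatocytes 2 at 12 h against WT and 2 at 36 h against 12 h. It called 7 response differences at 12 h for hepatocytes against HSCs (13% of all genes) and 7 against LSECs (7.03%). A fit of the 2 groups alone called 8 in LSECs at 12 h against WT, and its share over all genes is not given here. The causes were not tested.

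With 1 library left out, the count ranged from 2 to 7 in HSCs at 12 h against WT and from 4 to 9 at 36 h against 12 h. In LSECs it ranged from 2 to 8 at 12 h against WT and from 4 to 13 at 36 h against 12 h. For the response at 12 h it ranged from 1 to 9 for hepatocytes minus HSCs and from 2 to 6 for hepatocytes minus LSECs. Among WT libraries it ranged from 22 to 31 for HSCs against LSECs, from 17 to 22 for HSCs against hepatocytes and from 24 to 32 for LSECs against hepatocytes. For the comparisons with 0 calls it was 0 throughout. The shares of all genes called with a library left out are not given here.

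Within a cell type, same-numbered libraries did not deviate together in all pairs of groups. Between WT and 36 h the correlations were -0.02 to 0.29 in LSECs (other numbers -0.25 to 0.23). In hepatocytes they were 0.42 to 0.53, but libraries of other numbers ranged from -0.53 to 0.52. Between HSCs and LSECs same-numbered libraries deviated together at 12 h (0.12 to 0.35, other numbers up to 0.08) and 36 h (0.14 to 0.20, others up to 0.09). In WT the range was 0.03 to 0.27 (others up to 0.16). With the block, 0 response differences between LSECs and HSCs were called at 12 h and at 36 h. With a replicate block the count was 6 in HSCs and 3 in LSECs at 12 h against WT, 5 in HSCs and 11 in LSECs at 36 h against 12 h, and 2 for hepatocytes minus HSCs and 3 for hepatocytes minus LSECs in the response at 12 h. With the block it was 24 for WT HSCs against LSECs, 18 against hepatocytes and 28 for LSECs against hepatocytes. The shares of all genes called with the block are not given here. Without replicate 4 at 36 h of HSCs and LSECs, 0 response differences at 36 h were called.

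With 4 libraries a group, the depth limits scarce genes most: Birc5 in HSCs at 12 h rested on 3 to 10 counts a library.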
